A study of Mus musculus with 6 samples.

Results

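The genes described here are 10 contractile and YAP-responsive genes of mesenchymal cells, measured in calvaria (flat skull roof bones) of mouse pups with and without a functional copy of *Tmem53*. They were taken from the deposited table by symbol: *Acta2*, *Tagln*, *Cnn1*, *Cnn2*, *Myl9*, *Tpm1* and *Tpm2*, which are smooth muscle type contractile genes, and the YAP targets *Ctgf*, *Cyr61* and *Ankrd1*. Each symbol had 1 entry, all 10 were among the 13535 entries tested of 32350 in the table, and no member was at 0 in any library. Pups of strain B6N were taken at postnatal day 3, of which 3 were heterozygous (Tmem53+/-) and 3 were homozygous mutants (Tmem53-/-), and each gave a single library. *Tmem53*, which encodes a nuclear envelope protein, carried a frameshift made with CRISPR/Cas9 in its coding region. Heterozygous littermates served as controls, so every library carried at least 1 mutant allele, and no wild type calvaria were among the samples. Several mutant lines were made and a single one, named *Tmem53* 1bin/1bin, was followed in detail by the study, while the sample labels name no line. Values are FPKM, a fragment count scaled to the length of the gene and the size of the library. The genotypes were compared by limma on log2(FPKM + 0.5), and genes with an adjusted p under 0.05 (Benjamini-Hochberg, over all genes tested) are referred to as called.

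Contractile genes of this kind build the actin stress fibres of smooth muscle cells, pericytes and myofibroblasts, and many are also active in fibroblasts and bone-forming cells under mechanical load. Their transcription depends on serum response factor (SRF), which binds a DNA element named the CArG box and is driven by myocardin or by the MRTF cofactors, which enter the nucleus when actin polymerises. YAP and TAZ are cofactors of the TEAD factors. Stretch, a stiff matrix and low Hippo kinase activity bring them into the nucleus, where *Ctgf*, *Cyr61* and *Ankrd1* are widely used as readouts of their activity.

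Facts of the whole series bear on every value below. *Tmem53* itself was at 6.92 ± 0.469 FPKM in heterozygous and 11.6 ± 2.04 FPKM in mutant calvaria (SD, n = 3 each), a level that is no check of a frameshift allele. It was called higher in the mutants (log2 fold change 0.70, limma adjusted p = 0.04), but not with no filter on low values (0.0598). By *Xist* and *Ddx3y*, 2 heterozygous pups were female and 1, replicate 2, was male, while all 3 mutants were male, so sex was partly aligned with genotype. The summed FPKM ran from 569846 to 611928 per library, and read depth is not part of the table. Across genes, Pearson's r was 0.991 between heterozygous replicates 1 and 3 but 0.956 and 0.957 between these and replicate 2. Of the marker genes of other cell types, 8 of 10 endothelial genes had a mean below 0.5 FPKM, with *Tie1* and *Cldn5* at 0 in all libraries, as did 16 of 22 skeletal muscle genes, 8 of the 9 heart muscle genes with an entry, and all 6 of the red blood cell genes with an entry. The summed level of 10 osteoclast markers, of which 9 had an entry, was 3897, 687 and 2784 FPKM in heterozygous replicates 1, 2 and 3 and 207 to 340.2 FPKM in the mutants. The summed level of 19 cartilage markers, of which 17 had an entry, was 214 to 234 FPKM in the heterozygous libraries and 6609, 3570 and 1021 FPKM in mutant replicates 1, 2 and 3. Several abundant genes are listed at 0 in some libraries beside over 1000 FPKM in others, which can be a failed estimate: *Col1a1* and *Col1a2* in heterozygous replicate 2 and mutant replicate 3, *Spp1* in all but heterozygous replicate 2 and mutant replicate 1, *Col3a1* in heterozygous replicate 2 and *Fn1* in mutant replicate 3. At a lower level, *Ltbp2* is at 0 in heterozygous replicate 2 beside 92.9 to 141 FPKM in the others. Without the 3 of these on the list of 15 osteoblast markers, the other 12 summed to 3376, 5452 and 3357 FPKM in heterozygous replicates 1, 2 and 3 and to 5264, 5036 and 6571 FPKM in the mutants, most of it *Sparc*, a bone matrix protein that other mesenchymal cells also make. In such bulk tissue, fewer cells of a type and less RNA per cell cannot be told apart.

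The sequences before the start sites were searched for a strict form of the SRF element and for a TEAD element. RefSeq promoters (GRCm38.p6) were found for 8 of the 10 members. They cover 250 bases before to 50 bases after the start, and *Tagln* and *Ctgf* were not matched. The CArG box was searched as CCWWWWWWGG, with W for A or T. Elements with another base at a W were not counted, so members without a match may still carry an SRF element. A match on either strand was present in *Cnn2* and *Myl9*, against 1.63% of 32851 mouse promoters of the same length. The TEAD motif GGAATG, which reads CATTCC on the other strand, was present in *Acta2*, *Tpm1*, *Cyr61* and *Ankrd1*, against 14.66% of the promoters. *Ankrd1* carried 2 copies, and 1.36% of the promoters carried at least 2. Neither motif was found in *Cnn1* or *Tpm2*. The 250 bases before the start, on the strand of the gene, are shown for the member that was called, for the other member with a CArG box and for the YAP targets with a match, with the CArG box or the TEAD motif in capitals. The windows are chr10:79988350-79988599 on the plus strand for *Cnn2*, chr2:156775214-156775463 on the plus strand for *Myl9*, chr3:145649986-145650235 on the minus strand for *Cyr61* and chr19:36119845-36120094 on the minus strand for *Ankrd1*.
Cnn2: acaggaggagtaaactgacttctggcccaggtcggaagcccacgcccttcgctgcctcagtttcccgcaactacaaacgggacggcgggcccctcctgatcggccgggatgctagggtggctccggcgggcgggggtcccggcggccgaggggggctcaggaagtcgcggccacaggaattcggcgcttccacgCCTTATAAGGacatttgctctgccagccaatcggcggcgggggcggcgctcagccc
Myl9: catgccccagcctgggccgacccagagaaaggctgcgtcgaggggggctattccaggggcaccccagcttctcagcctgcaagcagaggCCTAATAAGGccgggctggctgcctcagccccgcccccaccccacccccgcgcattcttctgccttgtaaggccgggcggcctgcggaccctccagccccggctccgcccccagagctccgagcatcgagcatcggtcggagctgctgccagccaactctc
Cyr61: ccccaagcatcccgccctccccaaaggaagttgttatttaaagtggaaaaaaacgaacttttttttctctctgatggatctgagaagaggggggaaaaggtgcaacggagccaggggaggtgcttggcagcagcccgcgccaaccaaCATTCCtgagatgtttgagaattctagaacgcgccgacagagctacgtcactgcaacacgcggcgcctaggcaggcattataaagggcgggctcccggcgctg
Ankrd1: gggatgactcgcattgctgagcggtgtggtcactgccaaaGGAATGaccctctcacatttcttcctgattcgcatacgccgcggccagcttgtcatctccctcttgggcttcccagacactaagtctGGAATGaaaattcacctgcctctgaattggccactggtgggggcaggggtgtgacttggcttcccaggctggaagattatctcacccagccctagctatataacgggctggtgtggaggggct

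The CArG box of *Cnn2* (CCTTATAAGG) lay 56 to 47 bases before the start and that of *Myl9* (CCTAATAAGG) 161 to 152 bases before it. In *Cyr61* the TEAD motif lay 103 to 98 bases before the start, and in *Ankrd1* the copies lay 210 to 205 and 123 to 118 bases before it. The single TEAD motif of *Acta2* was 146 to 141 bases before the start and that of *Tpm1* 56 to 51 bases before it. These are matches of letters, and binding was not measured.

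Of the 10 genes, *Cnn2* was called higher in the mutants and none was called lower. Among all genes tested 7.06% were called, 3.44% higher and 3.63% lower. The fold change was positive for 9 of the 10 and negative for *Ankrd1*, with a median log2 fold change of 0.39 against 0.05 over all genes tested, of which 56.9% were positive. Every mutant was above every heterozygous library for *Cnn2*, *Myl9*, *Tpm1* and *Ctgf*, and below for *Ankrd1*. Such separation was found upwards in 21.2% and downwards in 16.0% of all genes tested. An unadjusted limma p under 0.05 was reached by 5 members and by 3781 genes in all, which is 27.9%. The heterozygous libraries differed among themselves: replicate 2 was the highest heterozygous library for 9 of the 10 members, all but *Cnn2*. In the mutants replicate 3 was the highest for 7 members, and replicate 1 for *Cnn1*, *Ctgf* and *Cyr61*.

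**Figure D1:**
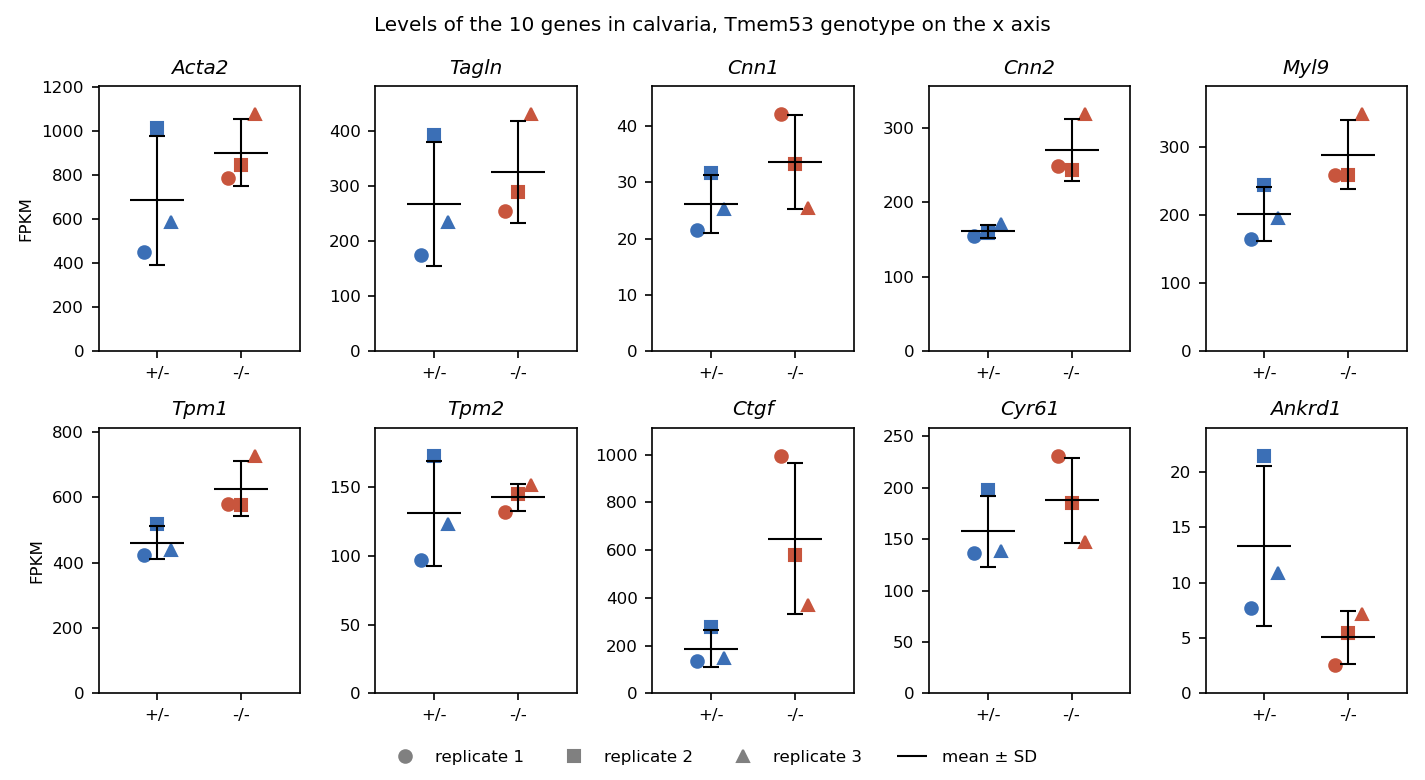
FPKM of the 10 genes in the 3 heterozygous (+/-, blue) and 3 mutant (-/-, red) libraries, with the replicate shown by the shape of the point and the mean ± SD in black, on linear axes from 0. The groups do not overlap for *Cnn2*, *Myl9*, *Tpm1* and *Ctgf*, which were higher in every mutant, and *Ankrd1*, which was lower in every mutant. Heterozygous replicate 2, the squares in blue, is the highest of its group for all but *Cnn2*.

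Among the thin filament and motor genes, *Acta2*, which encodes smooth muscle alpha-actin, was at 453, 1016 and 587 FPKM in heterozygous replicates 1, 2 and 3 and at 785, 845 and 1076 FPKM in mutant replicates 1, 2 and 3. It had a higher mean level than 99.2% of the genes tested. The groups overlapped, since heterozygous replicate 2 exceeded mutants 1 and 2. The log2 fold change was 0.47 with a 95% confidence interval of −0.29 to 1.23 (limma adjusted p = 0.376; exact two-sided permutation test, p = 0.3). *Acta2* shares much of its coding sequence with other actin genes, so reads may be split among them, and the handling of such reads is not given in the sources used here. *Myl9*, the regulatory light chain of smooth muscle myosin, was at 164, 244 and 196 FPKM in the heterozygous pups and 259, 259 and 347 FPKM in the mutants. All mutants were above all heterozygous libraries, though mutants 1 and 2 exceeded heterozygous replicate 2 only narrowly. Its log2 fold change of 0.52 (SE 0.19) was not called (limma adjusted p = 0.142).

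*Tpm1* and *Tpm2* encode tropomyosins, which lie along the actin filament and set the access of myosin to it. *Tpm1* was at 424, 519 and 440.2 FPKM in the heterozygous pups and 578, 577 and 725 FPKM in the mutants, with no overlap. Its log2 fold change of 0.44 (SE 0.16) was not called (limma adjusted p = 0.13). *Tpm2* was at 97.2, 172 and 123 FPKM in the heterozygous pups and 132, 145 and 151 FPKM in the mutants, all of which were between heterozygous replicates 3 and 2. Its log2 fold change was 0.16 (95% interval −0.34 to 0.67, limma adjusted p = 0.658), the smallest of the 10. The locus of *Tpm2* in the table overlaps the entries *Car9* and LOC100503819.

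The actin-binding proteins of the calponin family gave the one called member. *Cnn2* encodes calponin 2, the form found in many non-muscle cells, and its entry spans chromosome 10, 79451344 to 79458145, in the table's build, NCBI build37.2. It was at 155, 158 and 171 FPKM in the heterozygous pups and 249, 244 and 318 FPKM in the mutants. The heterozygous libraries were close to each other, at 161 ± 8.41 FPKM, and every mutant stood above them, at 270.2 ± 41.7 FPKM (SD, n = 3 each). The ratio of the means was 1.68 and the log2 fold change 0.73 (SE 0.14, 95% interval 0.41 to 1.06, limma adjusted p = 0.0339). The exact two-sided permutation test gave p = 0.1, the smallest that 3 against 3 allow. The call was lost without heterozygous replicate 1 (adjusted p = 0.137) or 3 (0.117) and without mutant replicate 1 (0.0997) or 2 (0.0779), and with sex as a covariate (0.061), with log2 fold changes of 0.70 to 0.80. *Cnn2* is the member for which heterozygous replicate 2 did not stand apart, at 0.974 of the mean of replicates 1 and 3.

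*Cnn1*, the calponin of differentiated smooth muscle, was at 21.6, 31.6 and 25.2 FPKM in the heterozygous pups and 42.0, 33.3 and 25.4 FPKM in the mutants. Mutant replicate 3 was level with heterozygous replicate 3, and the groups overlapped. The log2 fold change of *Cnn1* was 0.34 (95% interval −0.18 to 0.87, limma adjusted p = 0.346). *Tagln* encodes transgelin, a calponin-related protein of smooth muscle. It was at 175, 393 and 236 FPKM in the heterozygous pups and 256, 290.4 and 431 FPKM in the mutants. As for *Acta2*, heterozygous replicate 2 was above mutants 1 and 2, and the log2 fold change of 0.33 (95% interval −0.48 to 1.13) was not called (limma adjusted p = 0.569). The locus of *Tagln* in the table overlaps the entries *Pcsk7*, LOC100502793 and *Rnf214*.

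None of the 3 YAP targets was called. *Ctgf* encodes connective tissue growth factor, a matricellular protein of the CCN family made in abundance by cartilage and by fibroblasts. It was at 137, 279 and 148 FPKM in the heterozygous pups and 992, 579 and 372 FPKM in the mutants. Every mutant was above every heterozygous library, and mutant replicate 1 was the highest by a wide margin. The ratio of the means was 3.45 and the log2 fold change 1.74 (SE 0.42, 95% interval 0.72 to 2.76), which was not called (limma adjusted p = 0.0591; exact permutation p = 0.1). It was called without heterozygous replicate 2 (limma adjusted p = 0.0341) and without mutant replicate 3 (0.0446). The order of the mutants for *Ctgf*, replicate 1 above 2 above 3, was also that of *Cnn1*, *Cyr61* and the summed cartilage markers. The cartilage sum was 6609, 3570 and 1021 FPKM, and 14 of 17 cartilage genes tested were called higher. In heterozygous replicates 1, 2 and 3 this sum was 234, 230 and 214 FPKM, while *Ctgf* was highest in replicate 2. The part of cartilage in the level of *Ctgf* was not tested.

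*Cyr61* encodes another CCN protein and is an early target of YAP and of SRF. It was at 136, 198 and 139 FPKM in the heterozygous pups and 231, 186 and 147 FPKM in the mutants. The groups overlapped, with heterozygous replicate 2 above mutants 2 and 3, and the log2 fold change was 0.25 (95% interval −0.28 to 0.77, limma adjusted p = 0.501). *Ankrd1* encodes a muscle ankyrin repeat protein that is induced by stretch in heart and skeletal muscle. It was at 7.69, 21.4 and 10.9 FPKM in the heterozygous pups and 2.53, 5.43 and 7.20 FPKM in the mutants. All mutants were below all heterozygous libraries, mutant replicate 3 by the smallest margin. The ratio of the means was 0.379 and the log2 fold change −1.29 (SE 0.46, 95% interval −2.41 to −0.18), which was not called (limma adjusted p = 0.134). The summed level of 22 skeletal muscle markers was 22.5, 14.2 and 15.0 FPKM in the heterozygous libraries and 11.0, 10.7 and 5.43 FPKM in the mutants, and its part in the level of *Ankrd1* was not tested.

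**Figure D2:**
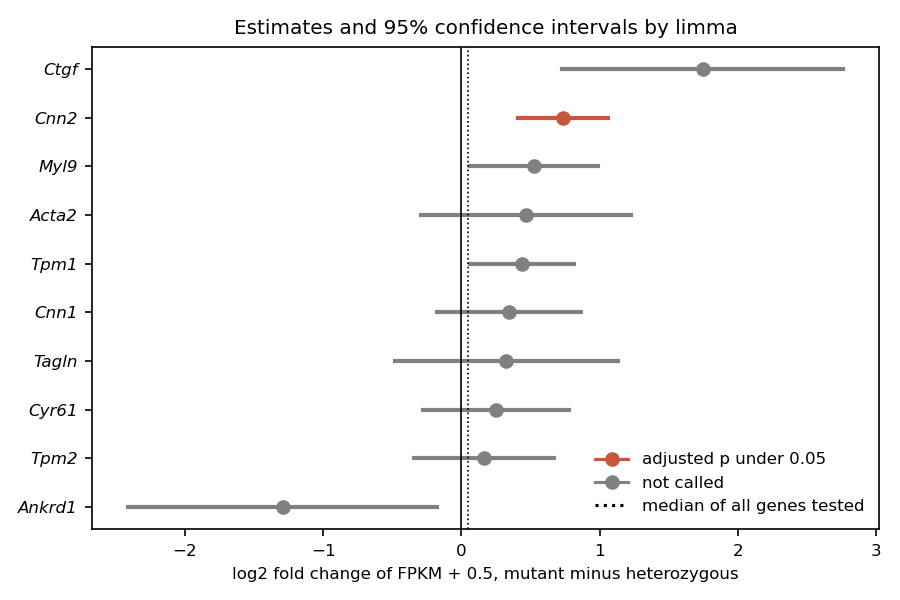
Log2 fold change of FPKM + 0.5, mutant minus heterozygous, for the 10 genes with 95% confidence intervals from limma, on 3 against 3 libraries. *Cnn2*, in red, was called, and the dotted line is the median of all genes tested, 0.05. The intervals of *Ctgf*, *Cnn2*, *Myl9* and *Tpm1* lie above 0 and that of *Ankrd1* below it.

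Heterozygous replicate 2, the male of its group, was 1.95 times the mean of replicates 1 and 3 for *Acta2*, 1.91 times for *Tagln*, 1.96 times for *Ctgf* and 2.31 times for *Ankrd1*. With sex as a covariate, which sets the mutants against this single male control, 5 of the 10 members had a positive log2 fold change: *Acta2* was at −0.19, *Tagln* at −0.31, *Tpm2* at −0.27 and *Cyr61* at −0.10, while *Cnn2* was at 0.76, *Ctgf* at 1.10 and *Ankrd1* at −2.08, none of them called. The mean of the mutants was 1.71 times the level of heterozygous replicate 2 for *Cnn2*, 2.32 times for *Ctgf*, 1.21 times for *Tpm1* and 1.18 times for *Myl9*. For *Acta2*, *Tagln*, *Tpm2*, *Cyr61* and *Ankrd1* it was 0.888, 0.829, 0.828, 0.95 and 0.236 times that level. Heterozygous replicate 2 also had the lowest summed osteoclast markers of its group, 687 FPKM. Its sum of 12 osteoblast markers, 5452 FPKM, was the highest of its group, and mutant replicate 3 had the highest of the mutants. Most of this sum was *Sparc*, at 3304, 5373 and 3276 FPKM in heterozygous replicates 1, 2 and 3 and 4706, 4621 and 5944 FPKM in the mutants. The order of the sum is therefore that of 1 abundant gene, which was not called, while 9 of the 15 osteoblast genes were called higher. Heterozygous replicate 2 is the only male control, so sex and the library cannot be told apart. It and mutant replicate 3, the highest mutant for 7 members, are also the libraries that list *Col1a1* and *Col1a2* at 0. The part of these listings and of these cell types in the members' levels was not tested.

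**Figure D3:**
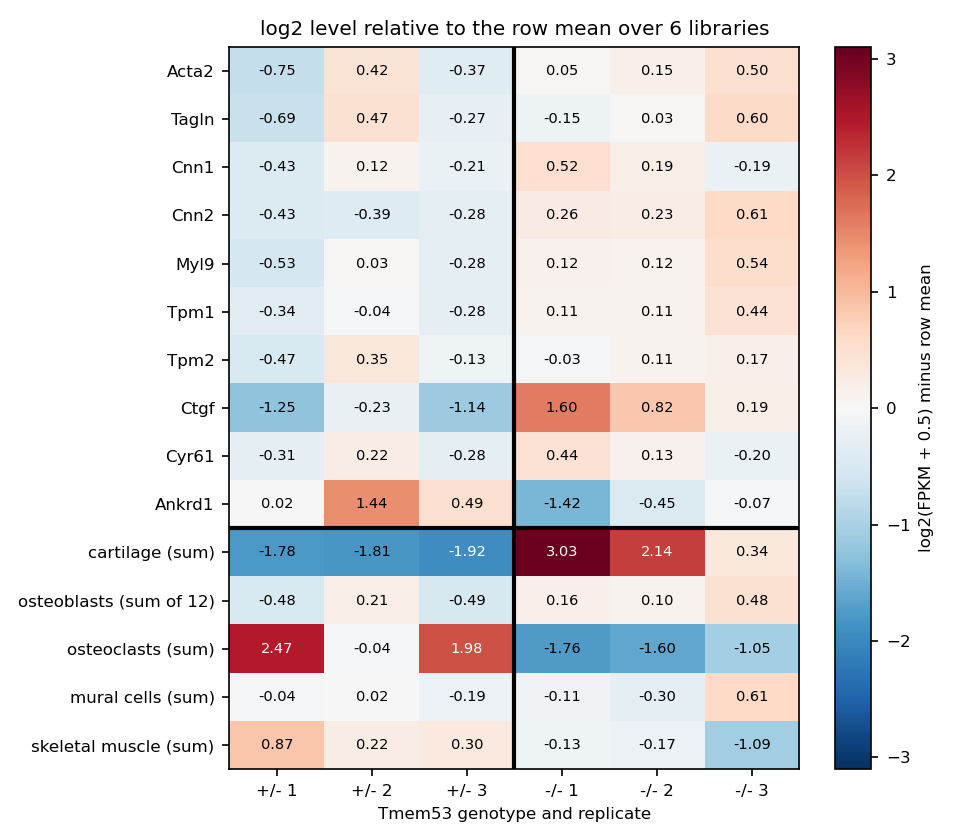
Log2(FPKM + 0.5) of the 10 genes and of the summed markers of 5 cell types, each minus its own mean over the 6 libraries. Libraries are in columns (+/- heterozygous, -/- mutant). The osteoblast sum takes the 12 markers not listed at 0 beside over 1000 FPKM, and most of it is *Sparc*. Heterozygous replicate 2 is above its row mean for all members but *Cnn2*, *Tpm1* and *Ctgf*. Over mutants 1, 2 and 3, *Ctgf* (1.60, 0.82 and 0.19) and the cartilage sum (3.03, 2.14 and 0.34) fall in the same order, as do *Cnn1* and *Cyr61*.

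Other genes of the smooth muscle programme gave 3 of 14 tested called higher and none lower, with a median log2 fold change of 0.26. The shares to set beside this list and those below are 3.44% called higher and 3.63% lower over all genes tested. *Smtn*, which encodes smoothelin, a protein of contractile smooth muscle, rose from 12.3 ± 0.812 to 23.0 ± 1.61 FPKM (SD, n = 3 each; log2 fold change 0.87, limma adjusted p = 0.0111). *Hspb6*, a small heat shock protein of smooth muscle, rose from 3.46 to 9.63 FPKM (adjusted p = 0.0452), and *Fhl1*, a LIM domain protein of muscle, from 20.7 to 40.7 FPKM (adjusted p = 0.0463). *Myh11*, the smooth muscle myosin heavy chain and a defining gene of mature smooth muscle, was at 1.497, 2.96 and 2.70 FPKM in the heterozygous pups and 1.25, 1.45 and 0.805 FPKM in the mutants (log2 fold change −0.77, adjusted p = 0.121). *Des* was below 1 FPKM on average in both groups, and *Actg2*, which encodes smooth muscle gamma-actin, was at 102 and 109 FPKM (adjusted p = 0.757). In the leave-out fits, 0 of these genes were called higher without heterozygous replicate 1, heterozygous replicate 3 or mutant replicate 1, 1 without mutant replicate 2, and 3 without either remaining library, with 2 called lower without heterozygous replicate 2. With sex as a covariate 1 was called higher.

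The mural cell list, markers of pericytes and vascular smooth muscle, gave 2 of 10 tested called higher and 0 lower. The median log2 fold change was 0.05, and 5 of the 10 were positive. *Cspg4*, which encodes the NG2 proteoglycan, rose from 5.93 to 18.5 FPKM (limma adjusted p = 0.0119) and *Cox4i2*, a subunit of cytochrome c oxidase, from 0.328 to 9.89 FPKM (0.00335). *Rgs5*, a regulator of G protein signaling marking pericytes, was at 3.68 FPKM in both groups, and *Pdgfrb*, the PDGF receptor of mural and other mesenchymal cells, was at 73.4 and 62.6 FPKM. The summed level of the list was 130 to 149 FPKM in the heterozygous libraries and 137, 120.0 and 226 FPKM in the mutants. Mutant replicate 3, which was the highest for 7 members, was also the highest here. Much of its excess was a single gene, *Ndufa4l2*, at 60.5 FPKM against 3.92 and 5.90 FPKM in mutant replicates 1 and 2. The part of mural cells in the members' levels was not tested.

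Non-muscle relatives of the members were not called. Of 21 tested genes of non-muscle actomyosin and adhesion, 0 were called by limma, 4 had an unadjusted p under 0.05, and the median log2 fold change was 0.00. *Cnn3*, the acidic calponin, was at 273 and 329 FPKM in heterozygous and mutant libraries (log2 fold change 0.26), *Tpm3* at 223 and 170.4 FPKM (−0.35), *Tpm4* at 386 and 368 FPKM (−0.07) and *Tagln2* at 118 and 100.02 FPKM (−0.18). Regulators of SRF gave 0 of 11 called, with 1 at an unadjusted p under 0.05 and a median of −0.03. For both lists the shares over all genes tested were 7.06% called and 27.9% at an unadjusted limma p under 0.05. *Srf* was at 12.2 and 13.3 FPKM, *Mkl1*, which encodes MRTF-A, at 12.3 and 10.2 FPKM, and *Mkl2*, which encodes MRTF-B, at 4.32 and 4.38 FPKM. *Myocd*, which encodes myocardin, was at 0.0107 FPKM or less in the heterozygous pups, and it was at 0.0837, 0.0975 and 0.115 FPKM in the mutants, below the minimum for the test.

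Of 22 other YAP-responsive genes, 4 were called higher and 2 lower, against 3.44% and 3.63% of all genes tested. Their median log2 fold change was 0.23. *Ccdc80*, which encodes a matrix protein, rose from 90.3 ± 9.45 to 208 ± 29.4 FPKM (SD, n = 3 each; log2 fold change 1.20, limma adjusted p = 0.0124). *Tgfb2*, the ligand TGF-beta 2, rose from 5.997 to 12.7 FPKM (adjusted p = 0.0134), *Nt5e*, the surface nucleotidase CD73, from 1.76 to 15.4 FPKM (0.0219) and *Amotl1*, an angiomotin that binds YAP, from 11.0 to 20.0 FPKM (0.0291). *F3*, which encodes tissue factor, the starter of blood clotting, fell from 103 ± 6.04 to 46.7 ± 10.1 FPKM (log2 fold change −1.15, adjusted p = 0.0219). *Dock5*, named after its values were seen, fell from 8.27 to 4.14 FPKM (0.0354). Without heterozygous replicate 1, 2 or 3 the count called higher was 1, 8 and 0 and the count called lower 0, 2 and 0. Without mutant replicate 1, 2 or 3 these were 0, 2 and 3 higher and 0, 0 and 1 lower, and with sex as a covariate 2 were called higher.

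The Hippo pathway and TEAD factors gave 0 of 17 called by limma, with 3 at an unadjusted p under 0.05 and a median log2 fold change of 0.11. Over all genes tested 7.06% were called and 27.9% had an unadjusted limma p under 0.05. *Yap1* was at 26.3, 36.0 and 27.7 FPKM in the heterozygous pups and 31.7, 30.1 and 33.4 FPKM in the mutants, and its groups overlapped. *Wwtr1*, which encodes TAZ, was at 32.4 and 40.4 FPKM, *Tead1* at 17.9 and 21.7 FPKM, *Tead2* at 13.3 and 13.6 FPKM, *Tead3* at 12.0 and 13.9 FPKM and *Tead4* at 0.537 and 1.04 FPKM. The kinases *Lats1* and *Lats2*, which keep YAP out of the nucleus, were at 11.1 and 13.1 FPKM and at 19.4 and 22.3 FPKM, and *Amotl2*, an angiomotin, was at 59.8 and 68.3 FPKM. These are mRNA levels, and the location of YAP in the cell was not measured.

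Relatives of *Ctgf*, *Cyr61* and *Ankrd1* gave no call. *Nov*, another CCN gene, was at 253, 89.6 and 175 FPKM in the heterozygous pups and 86.7, 92.7 and 114 FPKM in the mutants (log2 fold change −0.70, limma adjusted p = 0.258). *Wisp1* was at 40.3 and 49.5 FPKM and *Wisp2* at 240.3 and 194 FPKM. *Ankrd2*, the muscle ankyrin repeat gene that could be tested, was at 2.17, 0.464 and 1.91 FPKM in the heterozygous pups and 0.345, 0.278 and 0.0825 FPKM in the mutants. It was below every heterozygous library in every mutant, like *Ankrd1*, but its heterozygous replicate 2 was the lowest of its group where that of *Ankrd1* was the highest (log2 fold change −1.34, adjusted p = 0.0985).

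Of 16 immediate-early genes, many of which SRF induces within minutes of a stimulus, 0 were called higher and 4 lower, with a median log2 fold change of −0.14. The fold change was positive for 6 of the 16. Of these *Egr1* was at 17.2 and 28.6 FPKM in heterozygous and mutant libraries (limma adjusted p = 0.193) and *Klf4* at 11.0 and 24.5 FPKM (0.0703). Every mutant was above every heterozygous library for both, and neither was called. *Fos*, a subunit of the AP-1 factor, fell from 17.1 to 4.39 FPKM (limma adjusted p = 0.0109), *Zfp36*, an mRNA decay factor, from 14.7 to 9.60 FPKM (0.034), *Socs3*, an inhibitor of cytokine signaling, from 30.1 to 20.5 FPKM (0.04) and *Junb*, an AP-1 subunit, from 61.3 to 30.9 FPKM (0.0428). Of 15 TGF-beta ligands, receptors and induced genes, 2 were called higher and 3 lower. Besides *Tgfb2*, *Smad3*, a transducer of TGF-beta, rose from 9.74 to 14.7 FPKM (0.0327), while the induced matrix gene *Tgfbi* fell from 83.9 to 43.2 FPKM (0.0231), the co-receptor *Tgfbr3* from 21.0 to 11.5 FPKM (0.0284) and the receptor *Tgfbr1* from 16.2 to 9.26 FPKM (0.0378). Among fibroblast and meningeal genes 1 of 13 tested was called, *Thy1*, a surface protein of fibroblasts, which rose from 326 to 530.1 FPKM (0.0429). Of 15 osteoblast genes 9 were called higher, of 8 osteoclast genes tested 5 were called lower, and of 6 skeletal muscle genes tested *Tnni2*, a fast troponin, was called lower.

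**Figure D4:**
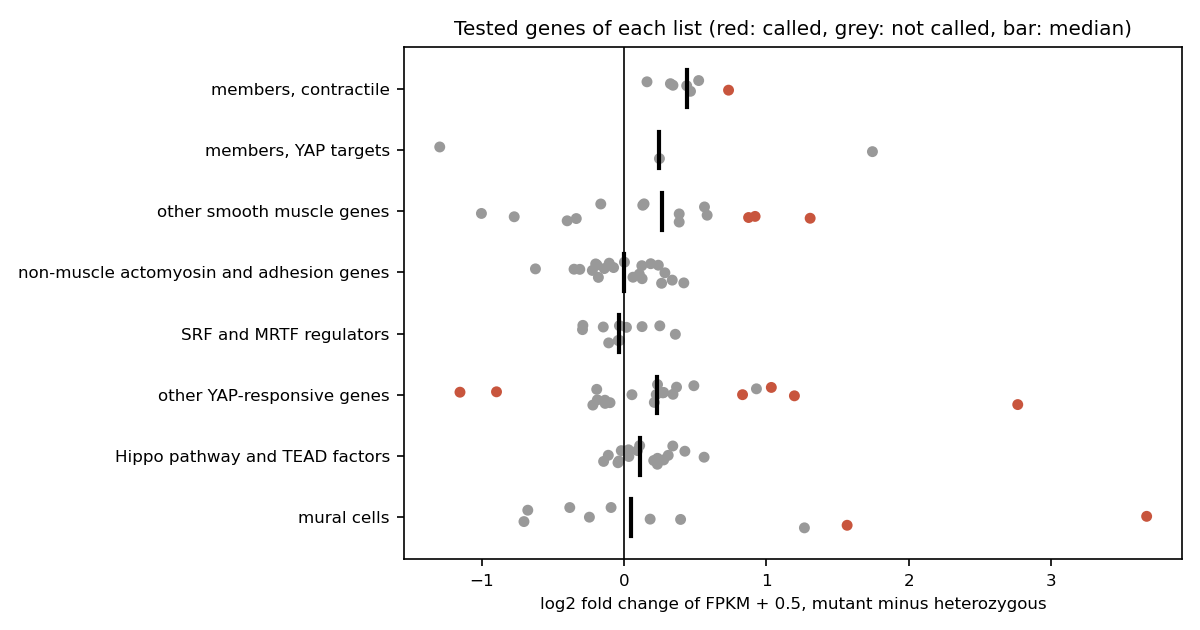
Log2 fold change of FPKM + 0.5, mutant minus heterozygous, of each tested gene in 8 lists, with called genes in red, others in grey and the median of each list as a bar. The contractile members lie between 0.16 and 0.73, the YAP target members at −1.29, 0.25 and 1.74, and the lists of SRF regulators, Hippo genes and non-muscle actomyosin hold no called gene.

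The profiles over the 6 libraries were compared by the root mean square distance between log2(FPKM + 0.5) values, each centred on its mean, among 12476 genes of at least 1 FPKM on average. The genes nearest to *Acta2* were *Ccdc149* (0.0917), *Bcat1* (0.0934), *Tcfl5* (0.1002), *Elovl4* (0.106) and *Tagln* (0.115), against a median distance of 0.441. *Bcat1*, a transaminase of branched-chain amino acids, was at 10.9, 22.6 and 12.0 FPKM in the heterozygous pups and 17.6, 17.0 and 25.0 FPKM in the mutants, so it shared the high heterozygous replicate 2 and mutant replicate 3. Nearest to *Ctgf* were *Hrct1* (0.0750), *Pcsk6* (0.182), *Efcab1* (0.199), *Nog* (0.212) and *Plxnb1* (0.232), against a median of 1.01. *Nog*, which encodes the BMP antagonist noggin, was at 1.56, 3.61 and 1.80 FPKM in the heterozygous pups and 19.6, 8.87 and 7.43 FPKM in the mutants. The distances describe 6 libraries and carry no test.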

How the data were processed

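Total RNA of calvaria from 3 heterozygous and 3 mutant pups was depleted of ribosomal RNA and made into directional libraries by the authors, who trimmed the paired reads with the FASTX-toolkit, aligned them with TopHat2 2.1.1 to NCBI build37.2 and estimated genes with Cufflinks and Cuffdiff 2.1.1. The deposited FPKM were used as the authors gave them. Which annotation, library type setting and scaling between libraries the authors used is not given in the sources used here. Read counts are not in the table, so precision rests on the spread between pups.

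Entries were kept where they had a symbol, which 7233 lacked, and averaged at least 0.5 FPKM across all 6 libraries. Where a listed gene had several entries, the entry of the highest mean was used, as for *Smtn* and *Wisp2*, which had 2 each. Groups came from the sample labels. log2(FPKM + 0.5) was fitted with limma 3.58.1 in R 4.3.3 (eBayes with a trend), two-sided, with Benjamini-Hochberg adjustment over 13535 entries. Members were also compared by exact permutation tests in SciPy 1.17.1. The procedure was tested on simulated data with independent normal noise, which held no outlying library and no effect of sex. There were 0 columns of per-sample values left unused, and no published fold changes were in the table.

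Members and gene lists were chosen with earlier results of these data known, and the red blood cell list after its values were seen. Besides all members, each list described gave its called genes by rising adjusted p, at most 5. Named as well were 25 genes whatever their result and the 5 genes nearest to *Acta2* and to *Ctgf*. Marker genes at 0 and examples from the mural, immediate-early and osteoblast lists were named after their values were seen. Alternatives covered the pseudocount, the filter, the scaling between libraries, the trend, a replicate block, sex and each library left out. The leave-out fits first took the minimum over the 5 libraries kept. After results were seen this was changed to all 6 libraries, as the design states it, and the first version is kept as an alternative. The osteoblast sum without genes listed at 0 was also chosen after values were seen.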

Additional observations from a re-analysis of the deposited data

How the results depend on the processing

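The number of genes called, 956, was 621 with no filter on low values, and it ranged from 14 to 2216 over the fits that left out 1 library, lowest without heterozygous replicate 3 and highest without heterozygous replicate 2. With the minimum taken over the 5 libraries kept, the version computed first and replaced after results were seen, leaving out heterozygous replicates 1, 2 and 3 in turn gave 72, 2216 and 51, and leaving out the mutants in that order gave 97, 175 and 735. The number of members called, 1, was 0 with sex as a covariate and ranged from 0 to 2 over the leave-out fits under either filter. The replicate block gave 30 called genes and 0 called members, but the numbers share no stated origin, and the deviations of same-numbered libraries correlated at 0.047, −0.23 and −0.138, so they were not treated as pairs. *Cnn2* was called in 9 of 15 alternatives (log2 fold change 0.61 to 0.80, limma adjusted p 0.0259 to 0.137), *Ctgf* in 2 (1.10 to 2.08, adjusted p 0.0341 to 0.217), and no other member in any. Of the other smooth muscle genes, 3 of which were called higher, 1 was with no filter, 1 with sex as a covariate and 0 with the replicate block. Of the other YAP-responsive genes, with 4 higher and 2 lower, 2 were called higher with sex as a covariate, 1 lower with no filter, and 0 in either direction with the block. Directions turned with sex as a covariate for *Acta2* (−0.19), *Tagln* (−0.31), *Tpm2* (−0.27), *Cyr61* (−0.10), *Yap1* (−0.18), *Tead2* (−0.19), *Srf* (−0.10), *Lats2* (−0.25), *Amotl2* (−0.17), *Actg2* (−0.34), *Tagln2* (0.54), *Nov* (0.11) and *Wisp1* (−0.59), and with median ratio scaling for *Tead2* (−0.016) and *Mkl2* (−0.027). With sex as a covariate the mutants are set against the level of heterozygous replicate 2, the single male control. Why that library differs was not tested. Over the leave-out fits the log2 fold change ran from −0.031 to 0.38 for *Tpm2*, −0.032 to 0.14 for *Tead2*, −0.033 to 0.084 for *Mkl2*, −0.078 to 0.37 for *Actg2*, −0.54 to 0.015 for *Tagln2*, −0.21 to 0.043 for *Tpm4* and −0.16 to 0.71 for *Wisp1*. A table of FPKM carries no depth, so low levels such as those of *Myocd* and *Ankrd2* are the least certain.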
